A study of Mus musculus with 8 samples.

Results

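This account concerns 8 genes measured in mouse knee joints, namely the small heat shock protein genes Hspb1, Hspb2, Hspb3, Hspb6, Hspb7, Hspb8 and Cryab, which are abundant in muscle, together with Bag3, the gene of a co-chaperone that works with them. They were chosen by gene name, and each of the 8 names matched 1 of the 20681 genes of the table. RNA had been sequenced after poly-A selection in 8 libraries, 4 with a control and 4 with a knockout label. By the submitters' design text, all 8 joints came from mice that carry Acan-Cre and Loxl2 alleles flanked by loxP sites. Acan-Cre is a recombinase under control of aggrecan (Acan) regulatory sequence. By that text the alleles are shared by both groups, although the control library names read LOXL2wt. Deletion is limited to cells in which that Cre acts, such as those of cartilage. The controls are called vehicle-treated, with library names that read Vehicle, DMM and LOXL2wt, and the other libraries are named KO, DMM and LOXL2ko. DMM, a surgery of the knee, is in all 8 library names, so by these names both groups share it. The agent given to the second group, the ages of the mice and the time after surgery were not given in the sources used here. Nothing in the labels says whether the samples are separate animals, so the p-values below measure the spread between these samples.

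Small heat shock proteins are chaperones that hold unfolded proteins in solution without using ATP, through a shared alpha-crystallin domain, and pass them to the Hsp70 machinery. In striated muscle they gather at the Z-disc and along desmin and actin filaments, where contraction damages proteins. BAG3 links HSPB8 to Hsp70 and to the autophagy receptor that removes damaged filamin C, a route known as chaperone-assisted selective autophagy. Several of these genes are induced by heat shock factor 1 and are also expressed in smooth muscle.

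The normalised read count, the deposited value, is the number of reads of a gene divided by a factor for the library, and the libraries held 13991000 to 17411617 reads. Each member had at least 174 reads in every library, and all 8 passed the filter for low values in both groups. Loxl2, the targeted gene, was higher in the libraries labelled knockout, with 282, 349, 1135 and 311 in the controls, in the order of their replicate numbers, against 893, 1468, 960 and 1518. This is not the direction of a lost transcript (log2 difference 1.44 with a limma adjusted p of 0.0294, exact permutation p = 0.0857). The call was lost in edgeR (adjusted p = 0.0669) and DESeq2 (0.0659) and when control replicate 1, 2 or 4 or knockout replicate 2 or 4 was absent (limma, 0.0663 to 0.0847). A count of the whole gene over a whole joint does not measure deletion in the cells where that Cre acts, which was not tested. Throughout, group names here follow the labels only. Skeletal muscle was a large part of each joint sample: a list of 20 skeletal muscle genes held 16.4% to 16.8% of the summed values of a control library and 10.11% to 12.96% of a library labelled knockout. In such bulk samples fewer muscle cells and less RNA per muscle cell cannot be told apart.

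The small heat shock protein genes were lower in the libraries labelled knockout, by 13.2% to 36.8% on the fitted scale. Of the 8 genes, 4 fell by the test (Hspb8, Hspb1, Bag3 and Hspb6), 0 rose, and the other 4 (Hspb2, Hspb3, Hspb7 and Cryab) did not pass it, with differences below 0. Differences are on the scale of log2 of the normalised count plus 1, knockout label minus control, from limma over all 14949 genes tested, and an adjusted p under 0.05 makes a call. Of all genes tested, 23.2% were called, 11.6% as lower and 11.6% as higher. The median difference of the 8 genes was -0.49, beside 0.00 for all genes tested, whose middle 50% lay between -0.27 and 0.36. For 3 of the 8 genes every library labelled knockout lay below every control library and for 0 above, where 25.1% of the genes tested had groups that did not overlap, 13.4% with lower and 11.7% with higher values under the knockout label. The number of members called was 3 under a term for the replicate number and 1 under quantile normalisation (median difference -0.29). Scaled to the skeletal muscle list, as described below, 0 were called lower and 1 higher. When single libraries were left out, the number called ranged from 1 to 6. It was 1 without control replicate 2 or control replicate 4, 2 without knockout replicate 1 or knockout replicate 4, and 6 without control replicate 3.

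**Figure D1:**
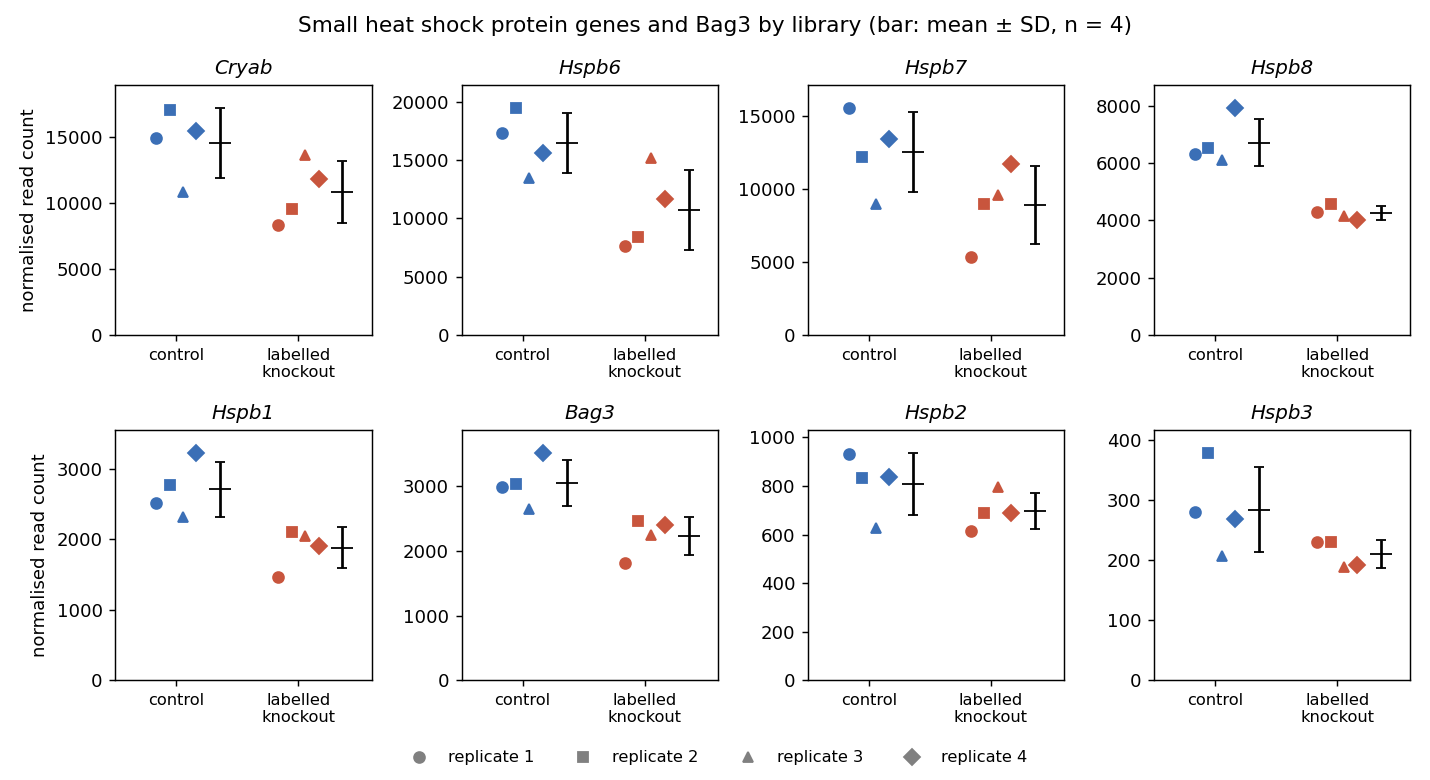
Normalised read counts (vertical axes, linear, from 0) of the 8 genes in the 4 control and 4 labelled knockout libraries; each point is a library, its shape gives the replicate number, and the bar is the mean ± SD (n = 4). Hspb8, Hspb1 and Bag3 separate the groups, and control replicate 3 is the lowest control library in all 8 panels.

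Hspb8, which encodes the partner of BAG3 in the selective autophagy of damaged muscle proteins, gave the clearest separation. Its gene lies on chromosome 5 (116408491 to 116422864, minus strand, build mm10, GENCODE M21) and overlaps no other annotated gene. The normalised count was 6308, 6527, 6097 and 7930 in the control libraries, again by replicate number, against 4280, 4565, 4144 and 4019 under the knockout label. All 4 libraries labelled knockout lay below all 4 control libraries, and they were close to each other, with a coefficient of variation of 5.51% against 12.3% in the control group. The means were 6716 ± 829 and 4252 ± 234 (SD, n = 4), and Hspb8 fell by 0.65 on the log2 scale (SE 0.10, limma adjusted p = 0.00456), with an exact permutation p of 0.0286, the smallest that 4 against 4 can give. The call held in all 16 other settings on the deposited, TMM, quantile or read-count scales, with log2 differences from -0.70 to -0.37.

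Bag3, on chromosome 7 (128523616 to 128546981, plus strand), showed the same order of groups at a lower level. The counts were 2991, 3034, 2648 and 3518 in the control libraries and 1811, 2456, 2246 and 2408 in those labelled knockout, in the order of the replicate numbers. The groups did not overlap, with knockout replicate 2 the nearest to the lowest control library, replicate 3. Bag3 fell by 0.45 on the log2 scale (SE 0.12, means 3048 ± 358 and 2230 ± 294, n = 4, limma adjusted p = 0.0247, exact permutation p = 0.0286). The call was lost under quantile normalisation (limma adjusted p = 0.132) and without control replicate 2 (0.0612), control replicate 4 (0.0653) or knockout replicate 1 (0.0525). The Bag3 to Hspb8 ratio inside a library, which no scaling changes, had a log2 mean of -1.14 ± 0.06 in the control group and -0.94 ± 0.21 in the other (SD, n = 4). The difference of 0.20 did not pass the exact permutation test (p = 0.143, 0.143 after adjustment over 2 ratios). Knockout replicate 1 held the lowest ratio of all libraries, at -1.24. Without it the difference was 0.30 (exact permutation p = 0.0286, not adjusted, the smallest that 3 against 4 can give). Of the 8 libraries left out in turn, it was the only 1 whose absence let the ratio pass. The exact permutation p reached 0.314 among the others.

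Hspb1, which encodes HSP27 and is known to protect actin filaments, lies on chromosome 5 (135887919 to 135889563, plus strand) with no overlapping gene. Its counts were 2518, 2770, 2321 and 3230 in the control libraries and 1473, 2108, 2051 and 1900 in those labelled knockout. Every library labelled knockout was below every control library, and knockout replicate 1 was the lowest. Hspb1 fell by 0.53 on the log2 scale (SE 0.14, means 2710 ± 393 and 1883 ± 287, n = 4, limma adjusted p = 0.0232, exact permutation p = 0.0286). Leaving out control replicate 2, control replicate 4 or knockout replicate 4 gave limma adjusted p-values of 0.0612, 0.0589 and 0.0563, and quantile normalisation gave 0.0759.

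Hspb6, the gene of HSP20, a small heat shock protein that is phosphorylated by protein kinase A and acts in muscle relaxation, had the largest difference of the members and one of the widest spreads. It lies on chromosome 7 (30552178 to 30555443, plus strand), and 5.44% of its exon bases are shared with opposite-strand genes of the table, Proser3 and Lin37. The counts were 17319, 19503, 13459 and 15633 in the control libraries. In the libraries labelled knockout they were 7599, 8453, 15165 and 11668, so that 3 of 4 lay below every control library and knockout replicate 3 lay above control replicate 3. Hspb6 fell by 0.66 on the log2 scale (SE 0.21, means 16478 ± 2562 and 10722 ± 3442, n = 4), only just inside the threshold (limma adjusted p = 0.0493, exact permutation p = 0.0571). The call was absent in 11 of the 16 other settings, edgeR (adjusted p = 0.0706) and TMM scaling (limma adjusted p = 0.0534) among them. It was also lost when any 1 library other than control replicate 3 or knockout replicate 3 was left out (limma adjusted p 0.0772 to 0.128), and without knockout replicate 3 the difference was -0.85 (adjusted p = 0.0117).

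Cryab, the gene of alpha-B-crystallin, a chaperone of desmin filaments and of the lens, was not called. Its counts were 14972, 17052, 10837 and 15468 in the control libraries and 8376, 9545, 13641 and 11833 in those labelled knockout. The groups overlapped through control replicate 3, which was below knockout replicates 3 and 4. The log2 difference was -0.43 (95% interval -0.84 to -0.02, limma adjusted p = 0.112, exact permutation p = 0.0857). It would have been called without control replicate 3 (-0.57, limma adjusted p = 0.0409) or knockout replicate 3 (-0.55, 0.0482).

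Hspb7, a cardiovascular and skeletal muscle small heat shock protein gene whose product binds filamin C (chromosome 4, 141420779 to 141425311, plus strand), had the widest interval of the 8. It ranged from 8987 in control replicate 3 to 15553 in control replicate 1, and from 5363 in knockout replicate 1 to 11710 in knockout replicate 4. The groups overlapped, since 2 of the 4 libraries labelled knockout lay above control replicate 3. The log2 difference was -0.52 (95% interval -1.06 to 0.01, limma adjusted p = 0.140, exact permutation p = 0.114). It was called in 0 of the 16 other settings.

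Hspb2 and Hspb3 encode partners that assemble with each other in differentiated muscle, and HSPB2 also binds the myotonic dystrophy kinase. Hspb2 counts were 932, 833, 627 and 839 in the control libraries and 616, 689, 794 and 688 in those labelled knockout, with overlap between the groups. The log2 difference of Hspb2 was -0.20, the smallest of the 8 (95% interval -0.49 to 0.09, limma adjusted p = 0.279). Hspb3 (chromosome 13, 113662896 to 113663676, minus strand, 1 exon) was the member with the fewest reads, with counts of 280, 379, 207 and 268 against 230, 230, 189 and 191. Control replicate 3 was below 2 libraries labelled knockout, and the log2 difference was -0.40 (95% interval -0.80 to -0.01, limma adjusted p = 0.120). Without control replicate 3 it was called (-0.54, limma adjusted p = 0.0367).

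Hspb2 and Cryab are neighbours on chromosome 9 and are read in opposite directions. Hspb2 runs from 50751078 to 50752354 on the minus strand and Cryab from 50751325 to 50756636 on the plus strand. The first principal Cryab transcript that starts beyond Hspb2 begins at 50752907, 614 bases from the principal Hspb2 start at 50752293, while a longer Cryab transcript starts inside Hspb2. In all, 252 exon bases are shared, which is 30.2% of the exon bases of Hspb2 and 17.0% of those of Cryab, and the use of strand in counting is not given in the sources used here. Both counts are therefore uncertain, since the handling of reads from the shared bases is not known. The log2 Cryab to Hspb2 ratio came to 4.17 ± 0.15 among controls and 3.94 ± 0.19 under the knockout label (SD, n = 4), a difference of -0.23 that did not pass the exact permutation test (p = 0.114, 0.143 after adjustment over 2 ratios).

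To compare levels between genes, counts were divided by the exon length in kilobases. In the control group Cryab was highest, at 9859 ± 1792 normalised reads per kilobase, followed by Hspb6 (7168 ± 1114), Hspb7 (4524 ± 990), Hspb8 (3444 ± 425), Hspb1 (2628 ± 381), Bag3 (1190 ± 140), Hspb2 (969 ± 154) and Hspb3 (363 ± 91). The ranges over control libraries overlapped between Cryab and Hspb6, between Hspb7 and Hspb8, between Hspb8 and Hspb1 and between Bag3 and Hspb2. Within each control library, however, the first gene of each of these pairs was above the second. Dividing by the longest principal transcript instead put Hspb6 at 12090 ± 1880 and Cryab at 13055 ± 2372, and left the order of the means as it was, but Cryab was then above Hspb6, Hspb7 above Hspb8 and Bag3 above Hspb2 in 3 of 4 control libraries each. In the libraries labelled knockout the order of the means by exon length was the same, with Bag3 above Hspb2 in 2 of 4 libraries and Hspb7 above Hspb8 in 3 of 4. By the longest principal transcript, Hspb2 (902 ± 95) was above Bag3 (871 ± 115) in the means under the knockout label.

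Since the share of the skeletal muscle list was lower under the knockout label, the fit was repeated with each library set to the mean log2 value of the 20 skeletal muscle genes. On the deposited scale 8 of those 20 genes fell and 0 rose, with a median log2 difference of -0.65 and all 20 below 0. Relative to that list, the median difference of all genes tested moved from 0.00 to 0.64, so values near 0 on this scale mean that a gene moved with the mean of that list. The 8 members had relative differences from -0.03 to 0.43 with a median of 0.15, and 0 were called lower, as were 0.187% of all genes (28 of 14949). Only Hspb2 was called, as higher (0.43, SE 0.15, limma adjusted p = 0.0301, exact permutation p = 0.0571), while 64.1% of all genes tested were called on this scale, 63.9% as higher. That call was lost when control replicate 2, control replicate 3, knockout replicate 2 or knockout replicate 4 was left out (limma adjusted p 0.0525 to 0.0912). For Hspb6 and Hspb8, whose deposited differences were the largest of the 8, the relative differences were -0.03 (95% interval -0.47 to 0.42, limma adjusted p = 0.910) and -0.02 (-0.30 to 0.26, 0.902). Those of Hspb1 (0.11), Hspb7 (0.11), Bag3 (0.18), Cryab (0.20) and Hspb3 (0.23) did not pass the test either, with limma adjusted p-values from 0.286 to 0.709. These intervals leave room for differences of either sign.

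**Figure D2:**
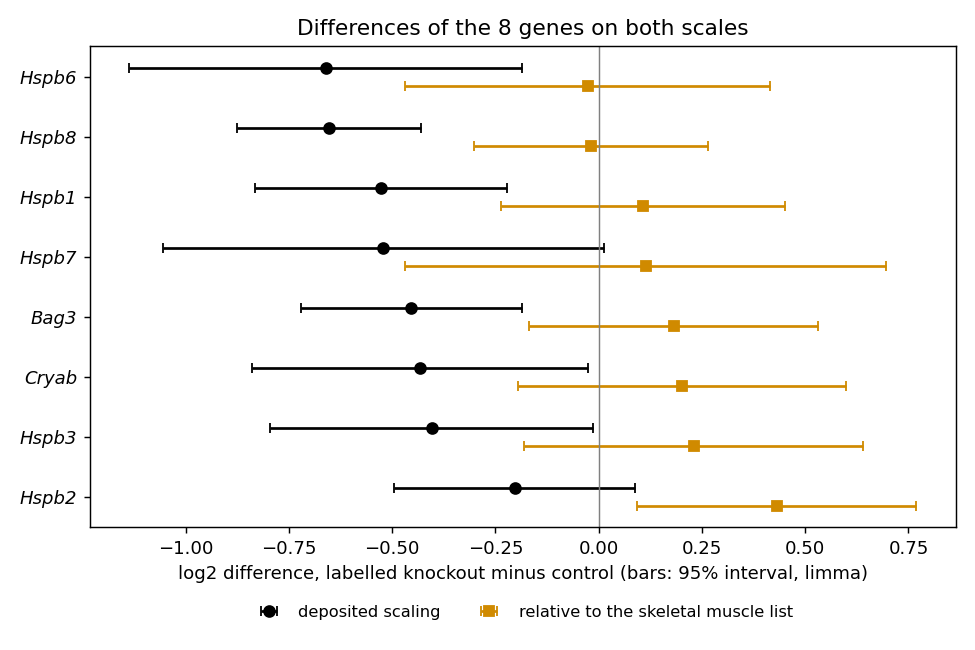
Log2 differences (horizontal axis) of the 8 genes with 95% intervals from limma, as deposited (circles) and relative to the mean of 20 skeletal muscle genes (squares). All 8 circles lie between -0.66 and -0.20, and the squares lie between -0.03 and 0.43.

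Within the groups the 8 genes did not all follow each other or the muscle list. Control replicate 3 was the lowest control library for 8 of 8 members, with a median deviation of -0.31 from the control mean on the log2 scale, whereas its muscle list deviated by -0.02. Knockout replicate 1 was the lowest of its group for 6 of 8 members, with a median deviation of -0.32, whereas its muscle list deviated by 0.02. The part of these libraries in the results is given by the values without them above. After subtracting the group means, Pearson's r over the 8 libraries was above 0 for 27 of the 28 pairs of members, with a median of 0.57. The pairs most alike were Hspb1 with Bag3 (0.94), Hspb6 with Cryab (0.93) and the neighbours Hspb2 with Cryab (0.84). Hspb8 was least alike with Hspb6 (-0.22), Hspb7 (0.06) and Cryab (0.09), and Hspb3 with Hspb7 (0.02). With the muscle list mean, r ranged from -0.32 for Hspb7 to 0.31 for Hspb3. These correlations are descriptions over 8 libraries that share depth and tissue makeup within each library.

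**Figure D3:**
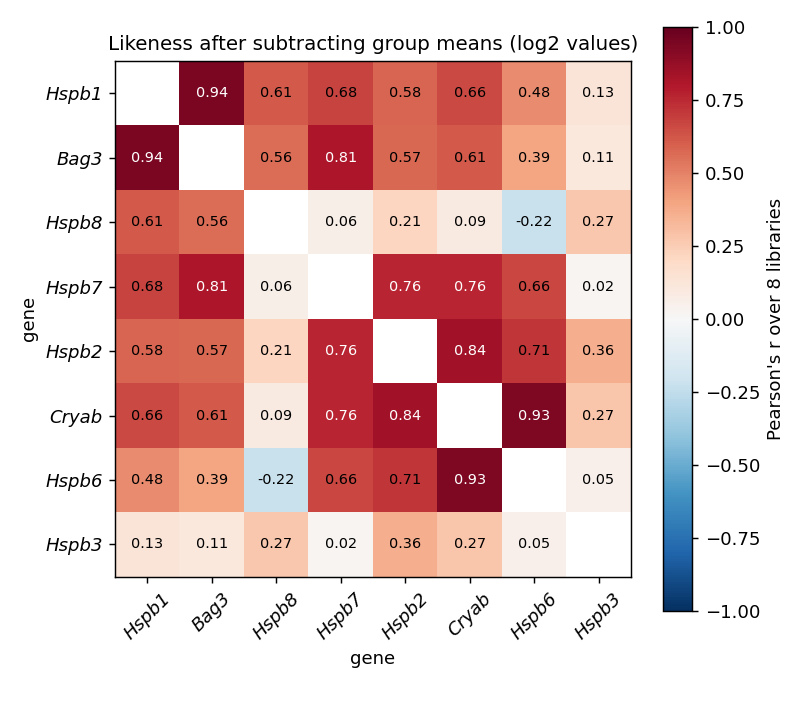
Pearson's r between log2 values of each pair of the 8 genes over 8 libraries after the group means were subtracted (colour scale from -1 to 1, values printed in the cells). Hspb1 with Bag3 and Hspb6 with Cryab are the highest, and Hspb3 and Hspb8 share least with the rest.

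Among 10021 genes with a mean count of at least 100, those most like a member in this sense were named by rule, 3 for each. They were Tomm5 (r = 0.98), Map3k14 and Mettl16 for Hspb1, and Tomm5 (0.97), Numb and Rab1a for Bag3, so both had the same gene first. For Hspb8 they were Fabp3, the fatty acid-binding protein of heart and oxidative muscle (0.97), Kbtbd12 and Nedd8, and Fabp3 also fell between the groups (10040 to 4847, log2 difference -1.01, limma adjusted p = 0.00765). Of the genes named below, Dusp18 (-0.88, limma adjusted p = 0.0263), Coro6 (-0.57, 0.0223) and Dffa (-0.55, 0.0215) fell too. For Cryab they were Wrap73 (0.99), Coro6 and Abca2, for Hspb6 Sppl2b (0.99), Taf10 and Fam234b, and for Hspb7 Dusp18 (0.98), Paox and Chmp1a. For Hspb2 they were Vrk3 (0.99), Vgll2 and Dffa, and for Hspb3 Mrps10 (0.96), Rbx1 and Serbp1. The highest of so many correlations over 8 libraries is high by selection.

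Heat shock factor 1 binds inverted repeats of the bases GAA, and the promoters were searched for the core GAANNTTC, which reads the same on both strands. The RefSeq table (build GRCm38.p6) held windows from 250 bases before to 50 after the start for 6 of the 8 members, Hspb1, Hspb3, Hspb6 (2 starts), Hspb7, Hspb8 and Bag3. The core was found in 5 of these 7 windows, in those of Hspb1 (2 matches), Hspb3, Hspb8, Bag3 and 1 start of Hspb6, and in 7.86% of all 32851 windows of the table. Most of the searched members have the core, but it is not the only such sequence. The GC box, GGGCGG, was in the windows of Hspb1, Hspb8, Bag3 and both starts of Hspb6, and in 35.7% of all windows. The 6 matches of the core are shown with 10 bases on either side where the window allows. They are given 5′ to 3′ on the strand of the gene, with the core in capitals.
Hspb1 (first): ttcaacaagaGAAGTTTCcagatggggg
Hspb1 (second): gatgggggcaGAACCTTCctggccccgc
Hspb3: tccccgaatgGAATTTTCaggcagaggg
Hspb6: agtaattattGAAGTTTCtaaataagga
Hspb8: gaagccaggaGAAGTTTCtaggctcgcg
Bag3: gatgggaccaGAAGTTTC
They lie at chr5:135887792-135887819 and chr5:135887812-135887839 (plus strand) for Hspb1, chr13:113663883-113663910 (minus) for Hspb3, chr7:30553171-30553198 (plus) for Hspb6, chr5:116422845-116422872 (minus) for Hspb8 and chr7:128523615-128523632 (plus) for Bag3. The matches of Hspb8 and Bag3 are inside the first transcribed bases, 2 and 42 bases after the RefSeq start. The same 8 letters, GAAGTTTC, occur in Hspb1, 1 start of Hspb6, Hspb8 and Bag3, and in 1.21% of all windows on either strand. That word is a case of the core and was picked after it was seen, so its share supports nothing further. The other half-site order, TTCNNGAA, was in none of the 7 windows (8.52% of all). The heat shock elements of 3 units, in either order, were not there either (0.603% of all for each). The 250 bases before the Hspb1 start (chr5:135887669-135887918, plus strand) hold both matches at 117 and 97 bases before the start and are shown as the window with the most matches.
Hspb1 upstream: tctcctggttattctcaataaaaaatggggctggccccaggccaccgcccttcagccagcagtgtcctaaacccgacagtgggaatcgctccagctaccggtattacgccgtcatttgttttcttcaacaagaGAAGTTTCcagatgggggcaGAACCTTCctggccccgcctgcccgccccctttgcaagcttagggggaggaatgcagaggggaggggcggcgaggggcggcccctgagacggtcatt
A match is a description of letters and not of binding.

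The genes that work with the small heat shock proteins were taken from lists. Beside the count of each list below stand 11.6% of all genes tested called lower and 11.6% called higher. Of the 20 skeletal muscle genes, 8 were called lower. Of 14 further genes of chaperone-assisted autophagy 8 fell and 0 rose, with a median log2 difference of -0.27. Flnc, the filamin C gene, had 17037, 16613, 16811 and 19066 in the control libraries and 7769, 10109, 11819 and 9341 in those labelled knockout, with no overlap (-0.85, SE 0.13, limma adjusted p = 0.00474). Synpo2, whose product ties BAG3 to the membranes that engulf cargo, fell by 0.58 (limma adjusted p = 0.00610), Ywhag, a 14-3-3 gene, by 0.54 (0.00463), and Sqstm1, the p62 receptor gene, by 0.55 (0.0145). Quantile normalisation ended the calls of Synpo2 (-0.22, limma adjusted p = 0.0683) and Sqstm1 (-0.26, 0.168). Stub1, which encodes the ubiquitin ligase CHIP, had 986 ± 196 and 888 ± 197 and was not called (-0.15, limma adjusted p = 0.540). Of 16 filament and Z-disc genes that the chaperones serve, 7 fell and 2 rose (median -0.50). Xirp1 fell by 1.30 (SE 0.18, limma adjusted p = 0.00397), Des, the desmin gene, by 0.69 (0.0102) and Myot, the myotilin gene, by 0.61 (0.00785), while Vim, the vimentin gene of fibroblasts and other mesenchymal cells, rose by 1.08 (0.0132) and Flna, the filamin A gene, by 0.61 (0.0229). The call of Myot was lost under quantile normalisation (-0.23, limma adjusted p = 0.0840). Relative to the skeletal muscle list, Xirp1 was lower (-0.66, limma adjusted p = 0.0135), and Flnc (-0.21, 0.172), Des (-0.06, 0.643) and Myot (0.03, 0.833) were not called.

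Of 15 Hsp70 genes and partners 5 fell and 0 rose (median -0.31), and of 15 Hsp40 co-chaperone genes 7 fell and 0 rose (median -0.38). Hspa8, the constitutive Hsp70 that receives clients from small heat shock proteins, went from 15414 ± 843 to 11214 ± 791 (-0.46, SE 0.10, limma adjusted p = 0.0109), a call lost under quantile normalisation (-0.10, 0.364). Hspa4 (-0.32), Hspa9 of mitochondria (-0.42) and Hsph1 (-0.50) were called as well (limma adjusted p 0.0182 to 0.0260), but not without control replicate 4 (0.0523 to 0.0673), and Hspa9 and Hsph1 not without knockout replicate 1 or 4 either (0.0605 to 0.0744). Hspa4 and Hspa9 were also lost without control replicate 2 (0.0548 and 0.0720) and Hspa9 without knockout replicate 2 (0.0548). Also called were the Hsp40 genes Dnaja3 (-0.64), Dnajb5 (-0.53), Dnajb12 (-0.50) and Dnaja2 (-0.45), each with an adjusted p of at most 0.00597. Under quantile normalisation Hspa4 (-0.16, limma adjusted p = 0.141), Hspa9 (-0.14, 0.287), Hsph1 (-0.40, 0.0596) and Dnaja2 (-0.23, 0.0509) were not called. Hspa1a, Hspa1b, Dnajb1 and Hsp90aa1 were not called, except Hspa1a with DESeq2 (adjusted p = 0.0496), under quantile normalisation (limma, 0.0289) or without knockout replicate 4 (0.0440). Hspa1a had 105 ± 19.6 and 65.8 ± 20.5 (-0.70, limma adjusted p = 0.0612), Hspa1b had 161 ± 103 and 109 ± 41.4 (-0.48, 0.397), Dnajb1 had 181 ± 20.7 and 198 ± 20.9 (0.14, 0.477) and Hsp90aa1 had 925 ± 68.8 and 937 ± 69.9 (0.02, 0.895). The signs of the last 2 are not stable: Dnajb1 stood at -0.00 under quantile normalisation, and Hsp90aa1 at -0.03 without control replicate 2 and -0.02 without knockout replicate 2.

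Of 13 genes of the Hsp90 system and of myosin folding 6 fell and 1 rose (median -0.32). Smyd1 (-0.66) and Unc45b (-0.52), which are needed for myosin assembly, fell with Hsp90ab1 (-0.53) and Trap1 (-0.52), with limma adjusted p-values from 0.00788 to 0.0150. Quantile normalisation ended the calls of Hsp90ab1 (-0.15, limma adjusted p = 0.241), Unc45b (-0.25, 0.107) and Trap1 (-0.34, 0.0561). Hsp90b1, the Hsp90 of the endoplasmic reticulum, rose by 0.46 (limma adjusted p = 0.0167). Of 10 chaperonin genes 6 fell and 0 rose (median -0.24), among them Tcp1 (-0.41), Hspd1 (-0.40), Cct6a (-0.32) and Cct7 (-0.30). None of these 4 was called under quantile normalisation, where they stood at -0.23, -0.20, -0.17 and -0.13 (limma adjusted p 0.0634 to 0.208). Without control replicate 2 the calls of Hspd1, Cct6a and Cct7 were lost (limma adjusted p 0.0597 to 0.0612), and without knockout replicate 4 those of Cct6a (0.0673) and Cct7 (0.0571). Cct7 was also lost without control replicate 4 (0.0549), and Cct6a without control replicate 1 (0.0548) or knockout replicate 1 (0.0536). Hsf1, the heat shock factor gene, fell by 0.42 (761 ± 67.3 to 571 ± 75.1, limma adjusted p = 0.0253), 1 of 4 tested genes of its list; its call was lost when control replicate 1, control replicate 2, control replicate 4, knockout replicate 1 or knockout replicate 4 was left out (0.0517 to 0.0738). Of the 5 other BAG genes only Bag6 was called (-0.55, limma adjusted p = 0.00422). These directions depend on the scale: relative to the skeletal muscle list, Dnaja3 (-0.00) and Smyd1 (-0.02) stayed near 0, and the other genes named here as fallen, from Hspa8 to Bag6, had differences above 0, from 0.08 to 0.33. Of these Hspa4 (0.31), Cct6a (0.32) and Cct7 (0.33) were called higher on that scale (limma adjusted p 0.0203 to 0.0393).

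**Figure D4:**
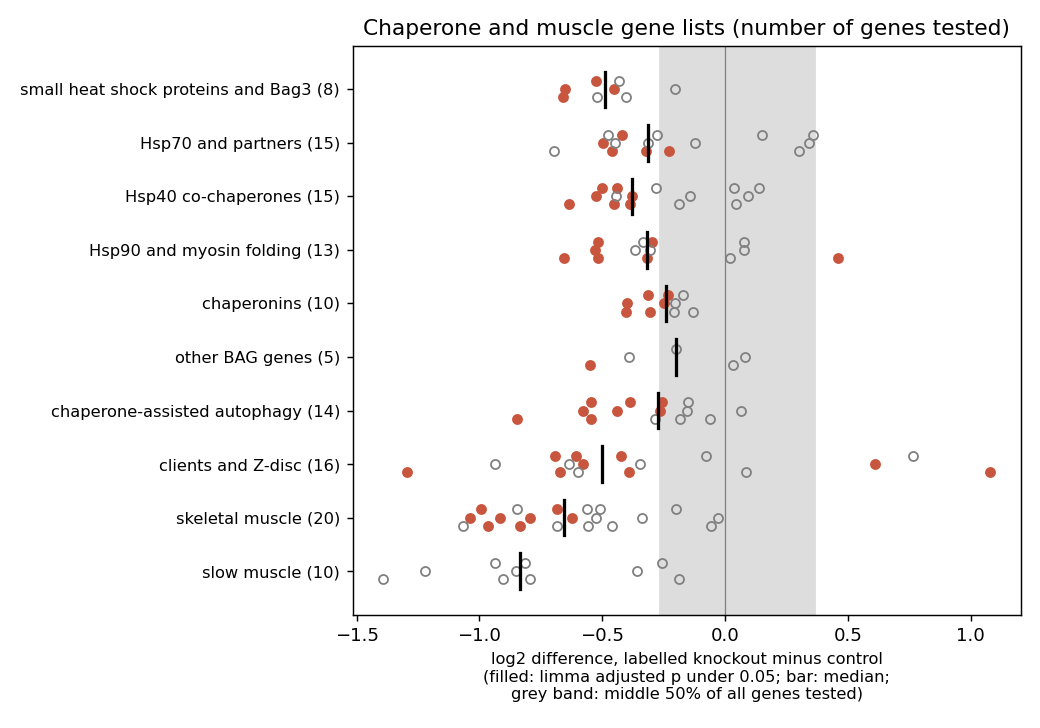
Log2 differences (horizontal axis) of every tested gene of the 8 members and of 9 gene lists (rows, with the number tested); filled points have a limma adjusted p under 0.05, black bars are medians and the grey band holds the middle 50% of all genes tested, -0.27 to 0.36. The median of the members (-0.49) lies below the band, as do those of 7 other lists, among them the client list (-0.50), the Hsp40 list (-0.38) and the skeletal muscle list (-0.65).

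Of the small heat shock protein genes outside the muscle set, Cryaa, the alpha-A-crystallin gene of the lens (chromosome 17, 31677807 to 31681733, plus strand), differed in the opposite direction. It had 0 reads in each of the 4 control libraries and 27, 16, 15 and 26 reads in knockout replicates 1 to 4, or 19.95 ± 6.05 normalised reads (SD, n = 4). Set against the limit of 3 reads over the whole control group, which covers counting error only, this was at least 25.8-fold higher. With 0 in the controls, the gene passed the filter for low values only because each library labelled knockout reached 10. The groups were therefore bound to separate, and the p-values (limma adjusted p = 0.00397, exact permutation p = 0.0286) give no support. Cryaa was no longer tested when any library labelled knockout was left out. An antisense gene overlaps its exons, so the strand of these few reads is not known. Hspb11 was not called (log2 difference 0.27), and Hspb9 was too low to test.

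Markers of other cell types that a joint sample can hold were measured beside the members. Of 10 smooth muscle markers, 9 were tested, 2 fell (Lmod1, -0.68, and Synpo, -0.59, which skeletal muscle can also express) and 0 rose. Of the tested markers 5 had differences below 0 and 4 above. The summed values of the list ranged from 7684 to 9634 in the control libraries and from 5555 to 7660 in the others. Synpo, with means of 4031 and 2670, made up a large part of these sums, so they do not describe the other markers. Of the defining smooth muscle genes, Acta2 (0.15) and Myh11 (-0.34) were not called and none was at 0. Of 10 slow muscle genes 0 were called, at a median of -0.83 and with sums from 6391 to 51159 and from 5439 to 37706, so that the slow fibre sum varied several-fold within both groups. Fibroblast markers rose in 9 of 10 (median 1.67, sums 39271 to 120915 and 173777 to 278933) and macrophage markers in 9 of 10 (median 1.26, sums 2873 to 6757 and 10034 to 14267). Of 10 chondrocyte markers 2 rose, Col11a1 (2.17) and Hapln1 (1.28), with a median of 0.76, 9 above 0 and sums from 3849 to 10198 and from 11076 to 15319. Comp, with means of 4358 and 7942, made up a large part of these sums and was not called (0.91, limma adjusted p = 0.0501). Acan (0.84), Col2a1 (0.79) and Sox9 (0.32) were not called either (limma adjusted p 0.326 to 0.441). Of 9 erythroid markers tested 0 were called, at a median of -1.95 with 9 below 0 and sums from 16825 to 99354 and from 4059 to 42692. None of 6 cardiac, 10 endothelial and 10 adipocyte markers tested was called (medians -0.28, -0.08 and -0.20). Of the markers found among the genes of the table, none was at 0 in all control libraries. Nppa, Nppb and Myl7 of the cardiac list and Ahsp of the erythroid list were not among those genes. The part of these shifts in tissue makeup in the lower counts of the 8 genes was not tested.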

How the data were processed

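RNA of mouse knee joints was sequenced in 4 control and 4 labelled knockout libraries, grouped by their titles. The deposited signal is a normalised count per gene. Per the submitters' processing notes and design text, HISAT2, featureCounts and DESeq2 were used on build mm10; versions, annotation, strand and filter values are not given in the sources used here. In each library 100% of the values were whole multiples of 1 step (within 0.001 reads), so reads were recovered by division; sums came to at least 10 reads per gene. The steps of 1.01 (control replicate 2) and 0.997 (knockout replicate 1) are too near 1 to say much alone.

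The test took genes that reached 10 in 4 or more libraries, on log2(value + 1) with limma 3.58.1 (trend) and Benjamini-Hochberg adjustment over all genes tested; single values had exact two-sided permutation tests over 70 assignments. In the scale relative to muscle, each library's mean log2 value of 20 skeletal muscle genes was subtracted. edgeR 4.0.16 and DESeq2 1.42.0 on recovered reads, pseudocounts of 0.1 and 10, no filter, TMM, quantile normalisation, a replicate term and leaving out each library were alternatives; leaving Tnnc2 out of the muscle list was chosen after seeing the data. On simulated counts for 14734 genes of this comparison, 192 of them changed, limma called 111 with 3 false calls and found 3.64%, 57.6% and 95.8% of genes changed by a log2 of 0.5, 1 and 2; with far fewer changed genes than in the real data, these rates do not carry over to it. Counting error was exceeded in each of the 12 within-group library pairs (chi-square per degree of freedom at least 25.8). Members and lists were chosen with earlier results of these data known. All 8 members were named; from each chaperone and client list at most 4 called genes of smallest p were named, with 12 genes named whatever their result. Flna, Hsp90b1, Acta2, Myh11, Lmod1, Synpo, Col11a1, Hapln1, Comp, Acan, Col2a1 and Sox9 were named after their values were seen.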

Additional observations from a re-analysis of the deposited data

Results flagged for a closer look

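In 2 of the 86 groups of 4 values checked, the highest library stood apart from the other 3 by more than Dixon's 95% limit for 4 values, where chance alone gives about 1 in 20. Neither concerned a member. Hspa1b, a heat-inducible Hsp70 gene, had 315 normalised reads in control replicate 4 and 106 to 117 in the other control libraries, so its control mean rests on that library. Loxl2 had 1135 in control replicate 3 and 282 to 349 in the other control libraries; the same library had the lowest control value of all 8 members.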

How the results depend on the processing

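Of all genes tested, 3461 were called; the number was 2018 with the replicate block, 9587 (9559 higher and 28 lower) when scaled to the skeletal muscle list, and 1740 to 3832 when single libraries were left out (1909 without control replicate 2, 2209 without control replicate 4 and 1740 without knockout replicate 4). Members called went from 4 to 1 under quantile normalisation, to 1 (higher) when scaled to the muscle list, to 3 with the replicate block, and to 1 to 6 with single libraries left out. The deviations of same-numbered libraries correlated at 0.21, -0.12, -0.23 and -0.06, which cannot settle whether the numbers pair the samples. The block ended the calls of Hspb6 (limma adjusted p = 0.107), Hspa4, Hspa9, Hsph1, Cct7, Cct6a, Sqstm1, Des and Loxl2 (0.0504 to 0.0686) among the genes named.

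Relative to the muscle list 9587 genes were called, and 4122 with slow muscle genes added to the reference, or 7853 to 10027 with single libraries left out; members called went from 1 to 0 with that reference and were 0 to 1 with single libraries left out. Scaled to the muscle list, differences below 0 turned positive for Hspb1 (0.11), Hspb2 (0.43), Hspb3 (0.23), Hspb7 (0.11), Cryab (0.20), Bag3 (0.18), Bag6 (0.084), Hspa8 (0.17), Hspa4 (0.31), Hspa9 (0.22), Hsph1 (0.14), Dnajb5 (0.11), Dnajb12 (0.13), Dnaja2 (0.18), Hsp90ab1 (0.11), Unc45b (0.12), Trap1 (0.12), Tcp1 (0.23), Hspd1 (0.24), Cct7 (0.33), Cct6a (0.32), Hsf1 (0.22), Ywhag (0.090), Synpo2 (0.055), Sqstm1 (0.088), Myot (0.029), Hspa1b (0.16) and Stub1 (0.48). On the relative scale Hspb6 was 0.019 with slow genes added, 0.0053 without Tnnc2 and -0.17 to 0.13 with single libraries left out; Hspb8 was 0.027, 0.013 and -0.077 to 0.076; Hspb7 was -0.12 to 0.35 with single libraries left out. Dnajb1 was -0.0033 under quantile normalisation, and Hsp90aa1 was -0.029 to 0.066 with single libraries left out. The Bag3 to Hspb8 ratio differed by 0.13 to 0.30 with single libraries left out, the last without knockout replicate 1, and the Cryab to Hspb2 ratio by -0.28 to -0.17. Where no cause is given it was not tested.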

Other observations

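A pair of muscle markers had very low counts here. Tnnc2, the troponin C gene of fast fibres, had 7 to 18 reads per library, while the troponin genes Tnni2 and Tnnt3 had 70144 to 111825 and 126179 to 222242. In the annotation 74.0% of the exon bases of Tnnc2 are shared with Ube2c on the opposite strand. Tagln, a smooth muscle gene that shares 67.9% of its exon bases with opposite-strand genes, had 9 to 22 reads. These 2 genes were chosen after their values were seen. Among the 8 members such sharing concerns Hspb2 (30.2%), Cryab (17.0%) and Hspb6 (5.44%), and whether reads of shared bases were counted was not tested.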
